A study of Homo sapiens with 8 samples.

Results

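The genes described here are 45 genes of the amino acid and redox programme of ATF4. They were chosen by name from a list, with earlier results of these data known. Their shares beside those of all genes are therefore a description and no independent support. Of the 45, 44 were measured by a probe set with 1 gene symbol, out of 22395 genes in all. GPT2 was not analysed here. The 44 genes all passed the signal filter that left 16796 genes for testing, a mean over all arrays above 2.51 on the log2 scale. The data are microarray signals from 4 established human prostate cancer cell lines, each treated for 48 hours with an siRNA against DNAPK, which the array titles call si7DNAPK, or with a non-targeting siRNA as the control. There was 1 array per treatment in each line, so 8 arrays form 4 pairs. C4-2B, a derivative of LNCaP, and PC3, from a bone metastasis, were grown in RPMI1640, and DU145, from a brain metastasis, and VCaP, from a vertebral metastasis, in DMEM, so medium and line cannot be told apart. C4-2B and VCaP are known to carry the androgen receptor and DU145 and PC3 to lack it. No allele or further agent is given for any group.

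ATF4 is a transcription factor whose messenger RNA is translated efficiently when the initiation factor eIF2 is phosphorylated by a stress kinase, a state known as the integrated stress response. It pairs with C/EBP proteins and raises the genes that make, import and load amino acids onto tRNA, together with genes of glutathione supply and feedback genes that end the response. Because ATF4 is controlled in large part by translation, its own messenger RNA need not move with its targets. DNA-PK is a kinase of DNA end joining, and PRKDC encodes its catalytic subunit.

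Values are log2 signals, and each difference is the DNAPK siRNA array minus the control array of the same line, so -1 is a halving of signal. With 1 array per treatment in a line there is no p-value within a line, and tests run over the 4 lines as a limma fit with the line as a block, with Benjamini-Hochberg adjustment over 16796 genes and a threshold of 0.05. The spread they measure is that of the response between lines. The targeted gene PRKDC was lower in 4 of 4 lines, with differences of -2.53 in C4-2B, -1.99 in PC3, -1.08 in DU145 and -0.62 in VCaP (limma adjusted p = 0.688). On the control arrays ERG stood at 8.57 in VCaP, the line with a TMPRSS2-ERG fusion, and VIM at 8.19 in DU145 and 7.82 in PC3, but KLK3 stood at 4.46 in VCaP, far below the 10.12 of C4-2B, although VCaP is known to express PSA. PTPRC and CD3E, markers of immune cells, lay at or below 2.95 on all arrays. CD68, another listed marker of other cell types, was not low. Its control signal ranged from 4.61, the VCaP value, up to 7.73 for DU145, with PC3 at 7.40 and C4-2B at 4.99. The highest signal on any array was 5.06 for COL1A1, 3.06 for VWF and 2.57 for COL1A2, which are markers of the same list. Over all probe sets the array medians lay between 2.94 and 2.99.

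The promoters of these genes were read for a sequence feature. The list was made by gene name, but its genes were listed as genes of the ATF4 programme. A high share of ATF4-type sites among them is therefore no independent support. The C/EBP-ATF response element, the kind of site that ATF4 dimers bind, was searched as TGATGNAA on either strand (TTNCATCA on the other) in the promoter windows of RefSeq (GRCh38.p14), each with 250 bases before a gene's start and 50 after it. Of 38 listed genes with a window, 16 held a match in at least 1 window, which is 42.1%, against 4.46% of 27305 genes. The form TGATGCAA was held by 11 of the 38, or 28.9%, against 1.08% of all genes. A match is a description of letters and does not show binding. The upstream 250 bases are given for 3 genes with large differences below, read 5′ to 3′ along the gene's strand with the match in capitals. They come from chr7:97872409-97872658 (minus strand) for ASNS, chr15:40953221-40953470 (plus strand) for CHAC1 and chr14:75427772-75428021 (plus strand) for JDP2.
ASNS: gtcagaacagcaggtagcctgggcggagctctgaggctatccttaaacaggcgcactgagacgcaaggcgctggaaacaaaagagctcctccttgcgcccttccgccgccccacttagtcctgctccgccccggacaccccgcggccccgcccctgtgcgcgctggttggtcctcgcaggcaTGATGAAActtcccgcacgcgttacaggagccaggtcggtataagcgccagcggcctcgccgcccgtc
CHAC1: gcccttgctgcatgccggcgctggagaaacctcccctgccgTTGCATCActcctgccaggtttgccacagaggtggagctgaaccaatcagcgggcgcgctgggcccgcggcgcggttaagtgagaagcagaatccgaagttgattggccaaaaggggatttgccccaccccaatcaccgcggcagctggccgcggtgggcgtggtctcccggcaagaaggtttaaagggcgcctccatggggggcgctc
JDP2: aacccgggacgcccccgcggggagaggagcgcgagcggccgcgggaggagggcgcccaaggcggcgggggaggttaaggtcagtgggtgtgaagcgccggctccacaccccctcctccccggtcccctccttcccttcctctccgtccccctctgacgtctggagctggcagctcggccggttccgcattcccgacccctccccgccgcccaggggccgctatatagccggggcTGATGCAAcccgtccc
The match begins at base 183 of the window in ASNS, at base 42 in CHAC1 and at base 235 in JDP2, and JDP2 and ASNS carry it on the gene's own strand while CHAC1 carries it on the other. For 4 further genes, stretches of 30 bases show how the letters around the match differ. ATF3 lies at chr1:212565205-212565234 (plus strand), CARS1 at chr11:3057407-3057436 (minus strand), GARS1 at chr7:30594834-30594863 (plus strand) and MARS1 at chr12:57488053-57488082 (plus strand).
ATF3: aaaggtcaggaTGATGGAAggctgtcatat
CARS1: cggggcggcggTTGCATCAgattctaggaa
GARS1: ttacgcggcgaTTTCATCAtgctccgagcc
MARS1: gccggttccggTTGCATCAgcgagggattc
ATF3 and GARS1 hold variants of the N position, and the synthetase genes CARS1 and MARS1 hold the TGATGCAA form on the other strand across the start site. A match was also found in AARS1, CEBPG, FGF21, MTHFD1L, NARS1, SLC1A4, SLC1A5, SLC3A2 and SLC7A1.

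With DNAPK siRNA most of these genes had a lower signal in VCaP and C4-2B, and the medians lay near 0 in DU145 and PC3. Arrays of bulk RNA cannot tell fewer cells of a kind from less RNA per cell. In VCaP, 41 of 44 genes lay below 0 (background 50.3%), with a median difference of -1.07 and 24 genes lower by over 1, where 2.42% of all genes tested were lower by over 1. In C4-2B, 40 of 44 lay below 0 (background 42.9%) with a median of -0.30, and 4 were lower by over 1 (background 0.339%) while 1 was higher by over 1 (background 0.244%). In PC3 the median was -0.067 with 28 of 44 below 0 (background 44.4%) and 0 lower by over 1 (background 0.542%). In DU145 the median was 0.053 with 19 of 44 below 0 (background 43.1%) and 1 lower by over 1 (background 0.816%). Over all genes tested the medians were -0.0032 in VCaP, 0.041 in C4-2B, 0.037 in PC3 and 0.045 in DU145. The line with the largest shift of these genes, VCaP, was the line with the smallest difference of PRKDC.

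**Figure D1:**
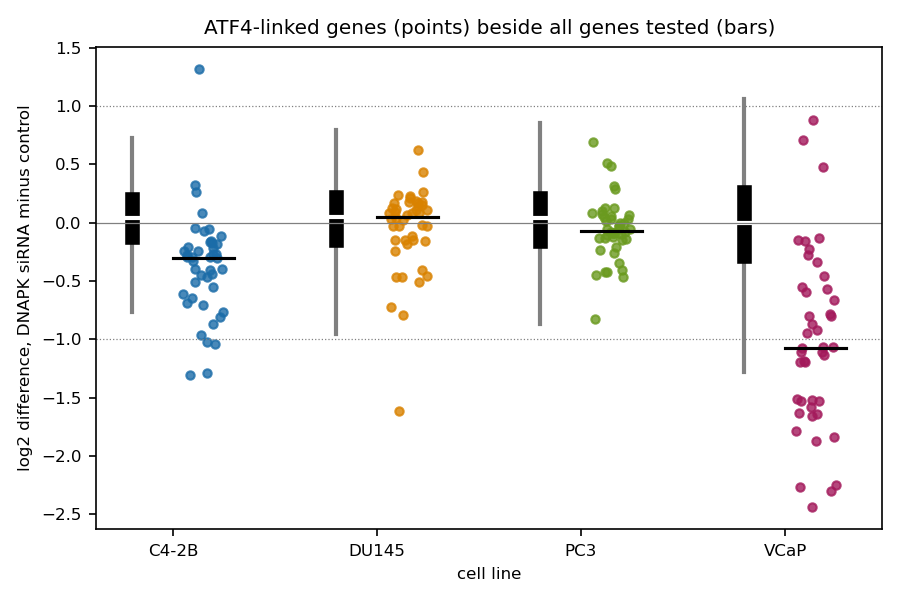
Differences (log2, DNAPK siRNA minus control) of the 44 genes in each line, as points with a black line at the median, beside all 16796 genes tested (white tick, median; black bar, 25th to 75th percentile; grey line, 1st to 99th percentile). The VCaP points centre on -1.07 and the C4-2B points on -0.30, while those of DU145 and PC3 lie around 0.

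Averaged over the 4 lines, 40 of 44 genes lay below 0 (background 43.6%), with a median of -0.33 against 0.027 for all genes tested. After cyclic loess scaling 40 of 44 lay below 0, against 8607 of 16796 genes in all. The limma fit called 0 of the 44 genes, and 0 of 16796 genes in all (0%), with adjusted p from 0.688 to 0.971 for the 44. At an unadjusted p under 0.05 there were 14 of the 44, all lower (limma), where 2.99% of all genes were lower and 4.2% higher at that level. Over all genes that is 502 lower and 706 higher, and cyclic loess scaling turned this balance to 693 lower and 424 higher, with 15 lower and 0 higher among the 44. In 14 of 44 genes the difference was below 0 in 4 of 4 lines, against 5.89% of all genes, and 1, ALDH18A1, was above 0 in 4 of 4, against 11.5%. The mean rests to a large part on VCaP. Without that line 35 of 44 genes lay below 0, against 6892 of 16796 genes in all, and the median was -0.11. At an unadjusted p under 0.05, 8 of the 44 were lower and 1 higher (limma), where 529 and 783 of all genes were. Without C4-2B 9 of the 44 were lower and 0 higher at that level, where 417 and 411 of all genes were. Means that lost much of their size without VCaP included those of CHAC1 (-0.49), PCK2 (-0.42), SLC6A9 (-0.42), CEBPB (-0.39), PSAT1 (-0.38), GARS1 (-0.15) and MARS1 (-0.062), and the mean of DDIT3 was 0.047.

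**Figure D2:**
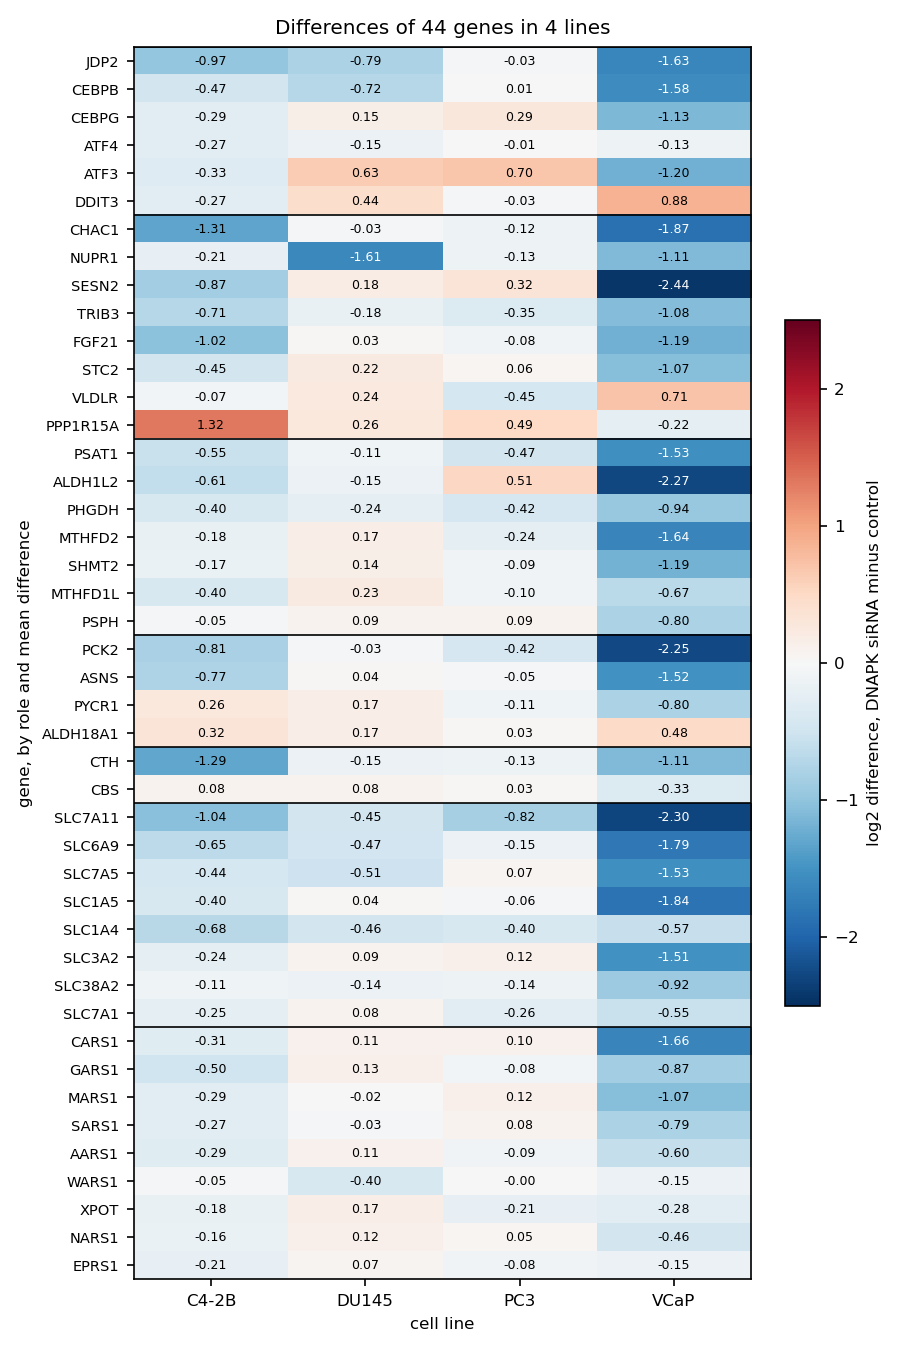
Difference (log2, DNAPK siRNA minus control) of each of the 44 genes in each of 4 lines, in blocks by role and ordered by the mean within a block (blue, lower; red, higher with DNAPK siRNA). The VCaP column is blue except for DDIT3, VLDLR and ALDH18A1, and the C4-2B column is blue except for PPP1R15A, PYCR1, ALDH18A1 and CBS.

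Among the transcription factors, ATF4 itself was nearly level. Its signal went from 9.27 on the control array to 9.14 in VCaP, 9.02 to 8.74 in C4-2B, 7.81 to 7.81 in PC3 and 8.76 to 8.61 in DU145. The mean difference was -0.14 ± 0.11 (SD, n = 4 lines; limma 95% interval -0.40 to 0.12, adjusted p = 0.764). The ATF4 transcript in VCaP differed by -0.13 while the median of the whole list there was -1.07. JDP2, a repressor of the AP-1 family, went from 5.11 to 3.48 in VCaP, 4.83 to 3.87 in C4-2B, 3.41 to 3.38 in PC3 and 5.19 to 4.40 in DU145. Its mean difference was -0.85 ± 0.66 (limma adjusted p = 0.688), and its PC3 control lay below the other controls. CEBPB, a C/EBP factor of stress and differentiation, went from 5.29 to 3.71 in VCaP, 4.98 to 4.51 in C4-2B and 4.60 to 4.61 in PC3, with a difference of -0.72 from a control of 5.72 in DU145, a mean of -0.69 ± 0.67 (limma adjusted p = 0.688).

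CEBPG, a dimer partner of ATF4, was lower in VCaP (8.66 to 7.53) and C4-2B (8.17 to 7.88) and higher in DU145 (7.12 to 7.28) and PC3 (6.25 to 6.54). ATF3, a stress-induced repressor, had the same split of signs, with 4.54 to 3.34 in VCaP and 5.52 to 5.19 in C4-2B against 3.51 to 4.14 in DU145 and 3.77 to 4.47 in PC3. Its mean of -0.051 turned to 0.042 without C4-2B and to 0.33 without VCaP. DDIT3, which encodes the pro-apoptotic factor CHOP, stood out in VCaP, where it went from 4.88 to 5.75 while 5 of the 6 factors lay below 0. It also went from 3.30 to 3.74 in DU145, 5.24 to 4.97 in C4-2B and 3.51 to 3.48 in PC3 (mean 0.25 ± 0.51, limma adjusted p = 0.757). A second probe set of DDIT3, with signals of 1.58 to 2.67, had a difference of 0.086 in VCaP.

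**Figure D3:**
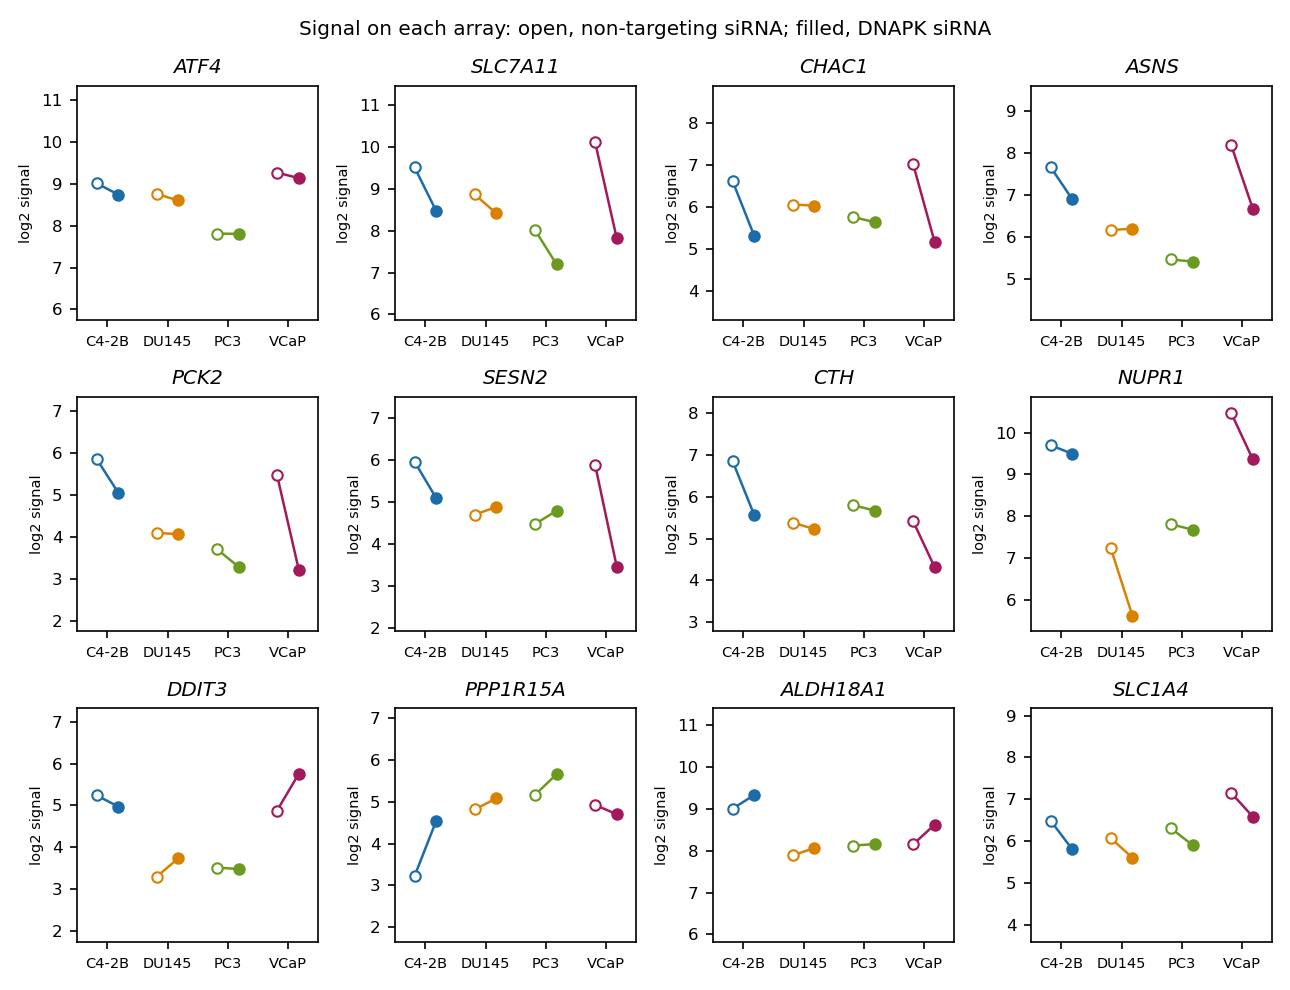
Log2 signal on each array for 12 genes, with the control array (open circle) joined to the DNAPK siRNA array (filled circle) of the same line, on axes of equal span. SLC7A11, CHAC1, ASNS, PCK2 and SESN2 have steep downward lines in VCaP and shorter ones in C4-2B, ATF4 is nearly level, and DDIT3 in VCaP and PPP1R15A in C4-2B go the other way.

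Of 8 stress effectors and feedback genes, 6 had a mean below 0, 4 of them at an unadjusted p under 0.05, and 0 passed with adjustment. CHAC1, an enzyme that cleaves glutathione, went from 6.63 to 5.32 in C4-2B and 7.03 to 5.16 in VCaP, but 6.06 to 6.04 in DU145 and 5.77 to 5.64 in PC3. Those are differences of -1.31 and -1.87 against -0.026 and -0.12, and CHAC1 ranked 10 from the lowest of 16796 genes in C4-2B and 39 in VCaP. SESN2, a leucine sensor that restrains mTORC1, went from 5.97 to 5.10 in C4-2B and 5.90 to 3.46 in VCaP, where it ranked 9 from the lowest. It went from 4.70 to 4.88 in DU145 and 4.48 to 4.79 in PC3, and its mean of -0.70 ± 1.27 (limma adjusted p = 0.72) was -0.12 without VCaP.

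TRIB3, a pseudokinase that feeds back on ATF4, was lower in 4 of 4 lines, 6.98 to 5.90 in VCaP, 6.52 to 5.81 in C4-2B, 5.45 to 5.11 in PC3 and 5.56 to 5.37 in DU145. NUPR1, a small stress-induced chromatin protein, had another pattern, with its largest difference in DU145 (7.24 to 5.63), then VCaP (10.47 to 9.36), and with 9.70 to 9.49 in C4-2B and 7.81 to 7.68 in PC3. Its mean was -0.76 ± 0.72 (limma adjusted p = 0.688), or -0.48 without DU145. The hormone gene FGF21 had differences of -1.02 in C4-2B and -1.19 in VCaP on low signals between 2.67 and 3.86, and the secreted glycoprotein gene STC2 had -0.45 and -1.07 there. Both lay between -0.084 and 0.22 in DU145 and PC3.

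PPP1R15A and VLDLR did not share the lower signal. PPP1R15A encodes GADD34, which brings a phosphatase to eIF2, and went from 3.22 to 4.54 in C4-2B, the only gene of the 44 that was higher by over 1 in any line. It went from 4.82 to 5.08 in DU145, 5.16 to 5.65 in PC3 and 4.92 to 4.70 in VCaP (mean 0.46 ± 0.64, limma adjusted p = 0.688, and 0.18 without C4-2B). The lipoprotein receptor gene VLDLR went from 6.77 to 7.48 in VCaP, 3.66 to 3.22 in PC3, 6.80 to 7.04 in DU145 and 6.83 to 6.76 in C4-2B, with a mean of 0.11 that turned to -0.094 without VCaP.

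All 7 genes of serine synthesis and mitochondrial one-carbon metabolism lay below 0 in VCaP and in C4-2B, with medians of -1.19 and -0.40, and 4 of 7 lay above 0 in DU145. PSAT1 and PHGDH, of the serine pathway, were lower in 4 of 4 lines. PSAT1 went from 10.86 to 9.33 in VCaP, 10.47 to 9.92 in C4-2B, 8.66 to 8.19 in PC3 and 10.36 to 10.24 in DU145, a mean of -0.66 ± 0.61. PHGDH, the first enzyme of the pathway, went from 8.05 to 7.11 in VCaP, 7.99 to 7.59 in C4-2B, 6.56 to 6.14 in PC3 and 6.75 to 6.51 in DU145, a mean of -0.50 ± 0.31 (limma adjusted p = 0.688 for both). PSPH, the last enzyme of that pathway, had -0.80 in VCaP and between -0.045 and 0.089 in the other lines.

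The mitochondrial folate enzymes were lower mainly in VCaP. MTHFD2 had -1.64 there against -0.24 to 0.17 elsewhere, SHMT2 -1.19 against -0.17 to 0.14, and MTHFD1L -0.67 against -0.40 to 0.23. ALDH1L2, which makes NADPH from formyl-folate in mitochondria, went from 5.60 to 3.33 in VCaP and 6.39 to 5.78 in C4-2B, with 5.13 to 4.98 in DU145. In PC3 its low signal went from 2.63 to 3.14. Its mean of -0.63 ± 1.19 (limma adjusted p = 0.724) was -0.085 without VCaP.

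The enzymes of asparagine, proline and phosphoenolpyruvate were divided. ASNS, asparagine synthetase and the standard reporter of amino acid limitation, went from 7.67 to 6.90 in C4-2B and 8.20 to 6.68 in VCaP, against 6.16 to 6.20 in DU145 and 5.46 to 5.41 in PC3. Its mean was -0.57 ± 0.73 (limma adjusted p = 0.688), and -0.26 without VCaP. PCK2, mitochondrial phosphoenolpyruvate carboxykinase, went from 5.47 to 3.22 in VCaP, 5.87 to 5.06 in C4-2B, 3.71 to 3.29 in PC3 and 4.10 to 4.07 in DU145, a 4.76-fold lower signal in VCaP.

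The proline enzymes differed from each other in direction. ALDH18A1 was higher in 4 of 4 lines, 8.15 to 8.62 in VCaP, 8.12 to 8.16 in PC3 and 7.89 to 8.06 in DU145, and by 0.32 to reach 9.33 in C4-2B (mean 0.25 ± 0.19, limma adjusted p = 0.688). PYCR1 was lower in VCaP (7.67 to 6.87) and PC3 (6.35 to 6.24) and higher in C4-2B (7.31 to 7.57) and DU145 (6.03 to 6.20), and its mean of -0.12 turned to 0.11 without VCaP.

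The transsulfuration pair, which turns homocysteine into cysteine, was split as well. CTH, which releases cysteine, went from 6.85 to 5.56 in C4-2B and 5.42 to 4.31 in VCaP, against 5.38 to 5.23 in DU145 and 5.80 to 5.67 in PC3. It ranked 13 from the lowest of all genes tested in C4-2B, and its mean was -0.67 ± 0.61 (limma adjusted p = 0.688). CBS, the enzyme before it, went from 7.83 to 7.49 in VCaP, and 6.40 to 6.49 in C4-2B, 3.32 to 3.35 in PC3 and 5.85 to 5.93 in DU145, and its mean of -0.033 turned to 0.067 without VCaP.

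All 8 amino acid transporters had a mean below 0, and 4 of them an unadjusted p under 0.05. SLC7A11, the cystine importer that feeds glutathione synthesis, had the lowest mean of the 44 genes. Its signal went from 10.12 to 7.82 in VCaP, 9.51 to 8.47 in C4-2B, 8.02 to 7.20 in PC3 and 8.87 to 8.41 in DU145. In VCaP that is a 4.93-fold lower signal, and the DNAPK siRNA array of VCaP lay below both arrays of C4-2B, DU145 and the PC3 control. The mean was -1.15 ± 0.80 (limma 95% interval -1.79 to -0.52, adjusted p = 0.688), and -0.77 without VCaP. Its partner chain SLC3A2 had -1.51 in VCaP, -0.24 in C4-2B, 0.12 in PC3 and 0.086 in DU145.

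SLC1A4, a transporter of serine, alanine and cysteine, had the smallest spread between lines among the transporters. Its signal went from 7.16 to 6.59 in VCaP, 6.49 to 5.81 in C4-2B, 6.31 to 5.91 in PC3 and 6.07 to 5.61 in DU145. The mean of -0.53 ± 0.12 had the smallest unadjusted p of the 44 genes, 0.00175 (limma, adjusted p = 0.688). SLC6A9, a glycine transporter, was lower in 4 of 4 lines too, with 6.18 to 4.39 in VCaP, 6.34 to 5.69 in C4-2B, 5.88 to 5.74 in PC3 and 5.77 to 5.30 in DU145.

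SLC7A5, the large neutral amino acid exchanger, went from 6.35 to 4.82 in VCaP, 9.35 to 8.91 in C4-2B, 8.38 to 8.45 in PC3 and 9.76 to 9.25 in DU145 (mean -0.60 ± 0.67, limma adjusted p = 0.688, and -0.29 without VCaP). The glutamine transporter gene SLC1A5 went from 9.48 to 7.64 in VCaP, with -0.40 in C4-2B, -0.056 in PC3 and 0.035 in DU145. SLC38A2, a neutral amino acid transporter, had -0.92 in VCaP against -0.14 to -0.11 in the other lines. The arginine transporter gene SLC7A1 went from 8.96 to 8.41 in VCaP, 9.40 to 9.16 in C4-2B, 7.09 to 6.83 in PC3 and 7.97 to 8.06 in DU145.

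The 8 listed tRNA synthetases and the tRNA exporter XPOT had smaller differences. All 9 lay below 0 in both VCaP and C4-2B, with medians of -0.60 and -0.27, and 6 of 9 lay above 0 in DU145. CARS1, the cysteinyl-tRNA synthetase, had the largest difference, 6.58 to 4.92 in VCaP against 6.37 to 6.06 in C4-2B, 5.80 to 5.90 in PC3 and 5.85 to 5.96 in DU145, and its mean of -0.44 was -0.033 without VCaP. MARS1, for methionine, went from 8.84 to 7.77 in VCaP, 8.59 to 8.30 in C4-2B, 7.96 to 8.08 in PC3 and 8.39 to 8.37 in DU145. GARS1, for glycine, went from 9.20 to 8.33 in VCaP, 9.18 to 8.67 in C4-2B, 8.49 to 8.41 in PC3 and 8.82 to 8.95 in DU145. Both were lower mainly in VCaP and C4-2B. AARS1, for alanine, went from 9.77 to 9.17 in VCaP, 10.31 to 10.02 in C4-2B, 8.94 to 8.85 in PC3 and 10.13 to 10.24 in DU145. XPOT went from 10.65 to 10.37 in VCaP, 10.76 to 10.58 in C4-2B and 9.78 to 9.57 in PC3, and was higher by 0.17 in DU145. In VCaP the differences were -0.79 for SARS1, -0.46 for NARS1, -0.15 for EPRS1 and -0.15 for WARS1, the synthetases for serine, asparagine, glutamate with proline, and tryptophan. WARS1 had its lowest difference in DU145, at -0.40. None of the 9 had an unadjusted p under 0.05 (limma, adjusted p from 0.693 to 0.842).

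**Figure D4:**
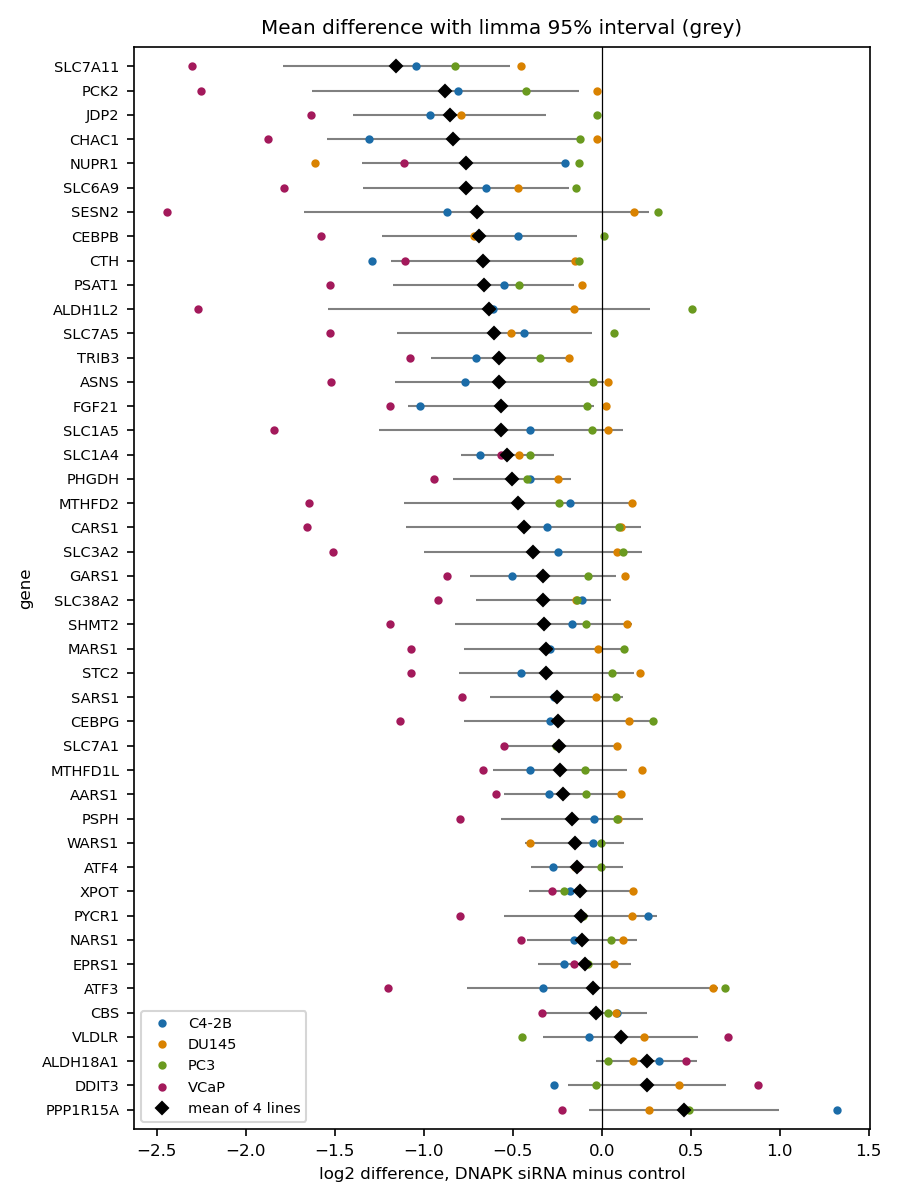
Mean difference over 4 lines of each gene (black diamond) with its limma 95% interval (grey) and the difference in each line (coloured points), on a log2 scale. The mean lies below 0 for 40 of 44 genes, and the VCaP point is the lowest of the 4 for 35 of the 44. How often VCaP was the lowest line among all genes tested was not counted. VCaP also had the widest spread of differences over all genes tested (SD 0.46), while no other line exceeded an SD of 0.33. A count above an even share is therefore not by itself a feature of this list.

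The lines were compared in their response by setting C4-2B and VCaP against DU145 and PC3. In 28 of 44 genes both differences of the first pair lay below both of the second, against 16.8% of all genes tested. The differences lay below 0 in C4-2B and VCaP and above 0 in DU145 and PC3 for 8 genes (ATF3, CEBPG, SESN2, STC2, PSPH, SLC3A2, CARS1 and NARS1), against 5.51% of all genes. The contrast had a median of -0.69 over the 44 genes against -0.019 over all. None of the 44 and 0 of 16796 genes (0%) passed it (limma, adjusted p = 0.991 for each of the 44). At an unadjusted p under 0.05 there were 17 of the 44, all lower, where 2.02% of all genes were lower and 1.68% higher. The smallest were those of CHAC1 (-1.52, limma unadjusted p = 9.48e-04, 95% interval -2.18 to -0.85), FGF21 (-1.08), CTH (-1.06), ATF3 (-1.43) and SESN2 (-1.90). With a line left out, 1 of the pairs holds a single line, so counts at that level are not given for those fits.

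Across the 44 genes, the differences in C4-2B and VCaP had a Pearson correlation of 0.57 and a Spearman correlation of 0.67, while over all 16796 genes the values were 0.059 and 0.056. The other pairs of lines had Pearson values from -0.0053 (PC3 with VCaP) to 0.33 (C4-2B with PC3) over the 44 genes. Their Spearman values ran from -0.012 (PC3 with VCaP) to 0.42 (C4-2B with DU145). Each point is 1 gene, all points of a line share the same 2 arrays, and genes are not independent replicates.

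The standing level of these genes set the same lines apart. On the control arrays, C4-2B and VCaP were both above DU145 and PC3 for 33 of 44 genes, against 20.5% of all genes tested. With DNAPK siRNA this held for 14 of 44, against 19.4%. Relative to each gene's mean over the 4 control arrays, the median level was 0.58 in VCaP, 0.37 in C4-2B, -0.57 in PC3 and -0.30 in DU145. On the DNAPK siRNA arrays it was -0.12 in VCaP, 0.37 in C4-2B, -0.32 in PC3 and 0.093 in DU145. VCaP therefore had the highest of the 4 medians on the control arrays and lay below C4-2B and DU145 on the siRNA arrays. Control level and difference share the control array, so these counts and the differences are not independent.

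**Figure D5:**
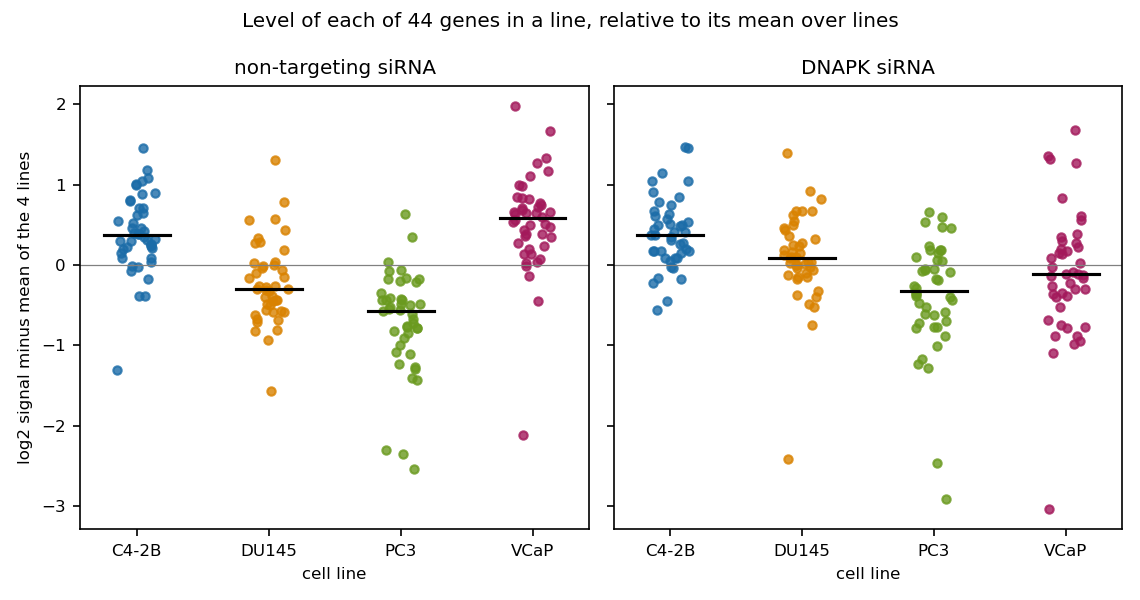
Log2 signal of each of the 44 genes in a line minus the mean of that gene over the 4 lines, on the control arrays (left) and the DNAPK siRNA arrays (right), with black lines at the medians. The VCaP median is 0.58 on the control arrays and -0.12 on the siRNA arrays, and the C4-2B median is 0.37 on both.

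Over the mean of both arrays of a line, 28 of 44 genes differed between lines (limma F-test, adjusted p under 0.05), which is near the 62.6% of all genes tested and so is no feature of this list. Without PC3 the count was 16 of 44, where 50% of all genes passed. The 6 pairs of lines differed in direction. C4-2B was above PC3 for 20 of 44 genes and below it for 2, where 17.7% and 18.5% of all genes passed in those directions and 36.2% in either. VCaP was above PC3 for 18 and below it for 1, where 19.6% and 21.5% passed. DU145 was above PC3 for 10 and below it for 1, against 14.8% and 15.7%, or 30.5% in either direction. VCaP was above DU145 for 13 and below it for 2, against 20.2% and 21.6%. C4-2B was above DU145 for 11 and below it for 1, against 17% and 17.5% (34.5% in either). C4-2B and VCaP were the most even pair, with C4-2B above for 6 and below for 3, against 18% and 16.7% (34.7% in either).

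Of the genes with the widest range of levels, CBS was ordered VCaP, C4-2B, DU145 and PC3, and each neighbour differed (limma adjusted p = 0.00161, 0.0426 and 5.28e-05), with 4.33 between VCaP and PC3. SLC7A1 was ordered C4-2B, VCaP, DU145 and PC3, and its neighbours differed as well (limma adjusted p = 0.0428, 0.0234 and 0.00507). SLC7A5 was lowest in VCaP by 2.83 from PC3 (limma adjusted p = 4.03e-04), and above that DU145 was higher than PC3 by 1.09 (limma adjusted p = 0.0423), while C4-2B between them did not pass as different from either. VLDLR was lower in PC3 by 3.35 than in C4-2B (limma adjusted p = 6.31e-05), and the other lines did not differ from each other by a gap that passed. NUPR1 was highest in VCaP and C4-2B, which did not pass as different, then PC3, then DU145, with both of those steps passing (limma adjusted p = 0.00511 and 0.027). ASNS was ordered VCaP, C4-2B, DU145 and PC3, with only the step from C4-2B to DU145 past the threshold (1.11, limma adjusted p = 0.0462), and 2.00 from VCaP to PC3 (limma adjusted p = 0.00314). ATF4 was lower in PC3 than in DU145 by 0.87 (limma adjusted p = 0.00511), and in VCaP it was higher than in DU145 by 0.52 (limma adjusted p = 0.0306), while C4-2B did not pass as different from either. DDIT3 was higher in VCaP and C4-2B than in DU145 and PC3, with the step from C4-2B to DU145 past the threshold (1.59, limma adjusted p = 0.0031). PSAT1 was lowest in PC3, by 1.67 from VCaP (limma adjusted p = 0.00372), and AARS1 had its passing step between C4-2B and VCaP (0.69, limma adjusted p = 0.0316). For CEBPG, ALDH1L2, PCK2, CTH and XPOT no step between neighbours passed, although the highest and lowest lines differed, by 1.70, 3.20, 1.96, 1.34 and 0.99 (limma adjusted p = 0.00428, 0.0031, 0.0122, 0.0131 and 0.00341).

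Genes with and without the TGATGNAA letters were set side by side. The 16 genes with a match had a median difference of -1.16 in VCaP and -0.37 in C4-2B, with 16 of 16 below 0 in both lines. The 22 genes with a window and no match had -0.93 and -0.27, with 19 of 22 below 0 in both lines. In DU145 the medians were 0.085 and -0.029, and in PC3 -0.053 and -0.054. The 3 genes above 0 in VCaP, DDIT3, VLDLR and ALDH18A1, are among those with no match in the window.

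Other genes of the pathway were read from lists chosen in the same way. Of 17 genes for eIF2, its exchange factor, its kinases and their regulators, 15 were tested, 0 were called and 12 had a mean above 0 (median 0.078). EIF2AK1, the haem-regulated eIF2 kinase, was lower in 4 of 4 lines with a mean of -0.35 ± 0.19 (limma unadjusted p = 0.0217, adjusted p = 0.688), and EIF2S1, the eIF2 subunit that is phosphorylated, had 0.21 ± 0.21. EIF2AK3, which encodes the kinase PERK and was chosen after its values were seen, had 1.07 in VCaP and -0.28 in C4-2B. Of 16 other ATF4-linked genes, 14 were tested, 0 were called and 9 had a mean below 0 (median -0.068). In VCaP 10 of the 14 lay below 0, with a median of -0.24, and 3 were lower by over 1 (background 2.42%). GDF15, named after its values were seen, had -1.99 in VCaP and -0.0031 in C4-2B, but 1.26 in DU145 and 1.37 in PC3. CLIC4, a chloride channel protein gene, had -0.70 ± 0.69 and was lower in 4 of 4 lines, and HERPUD1, of protein degradation at the ER, had -0.26 ± 0.32.

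Cytosolic tRNA synthetases outside the list were read beside those on it. Of 8 such genes 7 were tested and 0 called, 6 had a mean above 0 (median 0.12), and in VCaP 5 of 7 lay above 0 with a median of 0.14. FARSA had 0.41 ± 0.23 and HARS1 0.30 ± 0.32. Another 4 cytosolic synthetases, counted among the other ATF4-linked genes above and named here after their values were seen, lay below 0 in VCaP, with -0.83 for YARS1, -0.58 for TARS1, -0.35 for IARS1 and -0.005 for LARS1, and their means were -0.17, -0.15, -0.26 and -0.0074. The difference between the listed and the other synthetases was not tested. Other amino acid transporters (13 of 17 tested, 0 called) had a median of -0.065, with SLC1A3, a glutamate transporter gene, at -0.40 ± 0.46 and SLC36A1, of lysosomal amino acid export, at 0.29 ± 0.20. Other folate and methionine cycle enzymes (11 of 13 tested, 0 called) had 0.033, with the glycine cleavage gene GCSH at -0.25 ± 0.43 and MAT2A, which makes S-adenosylmethionine, at -0.16 ± 0.17. Glutathione and NRF2 genes (12 of 15 tested, 0 called) had -0.051, with the haem oxygenase gene HMOX1 at 0.40 ± 0.46 and NQO1, a quinone reductase gene, at -0.18 ± 0.27. In VCaP the medians of these 3 lists were -0.081, 0.22 and 0.12.

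On the VCaP pair of arrays 2 more lists had differences in the opposite direction. ER chaperones and targets of XBP1 or ATF6, the other arms of the unfolded protein response, had a median of 1.03 in VCaP with 14 of 15 above 0 and 8 higher by over 1, where 1.29% of all genes were. In C4-2B the same list had -0.21 with 15 of 15 below 0, in DU145 0.14 and in PC3 -0.069. The disulfide isomerase gene PDIA3 had 2.45 and the ER factor gene MANF 2.14 in VCaP, and their means of 0.60 ± 1.27 and 0.60 ± 1.11 did not pass (limma adjusted p = 0.744 and 0.722). Hypoxia-inducible genes had a median of 1.06 in VCaP with 10 of 10 above 0 and 6 higher by over 1, while the other lines had -0.32 (C4-2B), -0.23 (PC3) and -0.059 (DU145). P4HA1, a collagen hydroxylase gene, had 2.19 and LDHA, lactate dehydrogenase, 1.64 there, and their means of 0.53 ± 1.13 and 0.43 ± 0.82 did not pass (limma adjusted p = 0.746 and 0.736). The part of these shifts in the lower signal of the amino acid genes was not tested, and with 1 culture per treatment a difference between cultures and an effect of the siRNA cannot be told apart.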

How the data were processed

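Total RNA (400 ng) was labelled with a whole-transcript kit for Affymetrix arrays, per the labels' protocols. The authors deposited log2 signals of probe sets, made with oligo and RMA, per the submitters' processing notes, which give no version. For the array, a genome build was not given in the sources used here. RMA makes arrays alike in distribution, so differences are relative to the bulk of transcripts.

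Of 53617 probe sets, 23871 had 1 gene symbol in the platform annotation, 1842 several and 27904 none. Of the probe sets with 1 symbol, 22569 took the current symbol of their Entrez identifier (RefSeq, GRCh38.p14), whether or not it differed. Each of 22395 genes was read from its probe set of highest mean signal, and genes at or below the 25th percentile were left out. The fits used limma 3.58.1 in R 4.3.3 (lmFit, eBayes, 2-sided), with 3 residual degrees of freedom and 7.55 with the prior, and were tested on simulated data. Arrays were paired by their cell line. An exact sign-flip test of 4 pairs cannot give a p below 0.125, and p-values measure only the spread between these lines.

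The members and lists were chosen with earlier results of these data known. Genes given on every array were those with the largest absolute mean difference in each role (3), the highest and lowest differences in each line (3 each) and ATF4, and for levels the widest ranges in each role (2). From each further list the 2 largest mean differences were named. TRIB3 and SLC1A4 are also given on every array, chosen after their values were seen, and further genes are named so that every member is accounted for. Alternatives were median centring, cyclic loess, the mean of probe sets, no filter, the 50th percentile as filter, a prior trend, no block and leaving out each line.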

Additional observations from a re-analysis of the deposited data

Results flagged for a closer look

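Among the 4 lines, a single line stood far from the other 3 in the difference of 3 genes. In each of them it was VCaP, with -0.80 for PSPH against -0.045 to 0.089, -0.33 for CBS against 0.033 to 0.085, and -0.92 for SLC38A2 against -0.14 to -0.11. For levels, VLDLR in PC3 stood apart on the control array (3.66 against 6.77 to 6.83) and on the DNAPK siRNA array (3.22 against 6.76 to 7.48). CARS1 in VCaP stood apart with DNAPK siRNA (4.92 against 5.90 to 6.06). The gap was judged by Dixon's test at the 95% level in groups of 4, over the differences of 44 genes and 58 groups of levels. Chance flags about 1 in 20 groups.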

How the results depend on the processing

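None of the listed genes, and 0 genes in all, passed the comparison of DNAPK siRNA with control under any of the 11 alternatives run (limma, with 3 to 17 listed genes lower at an unadjusted p under 0.05), and none passed the difference in response between pairs of lines under the 10 run there. With no replicate block, 3 of the 44 had an unadjusted p under 0.05, against 14 with it, and their smallest adjusted p was 1 (limma). Over all genes 38 were lower and 25 higher at that level with no block. The balance of all genes at an unadjusted p under 0.05 rests on the scaling, with 693 lower and 424 higher after cyclic loess against 502 and 706, while the 44 genes had 15 lower and 0 higher. Cyclic loess left the median of the 44 at -0.37 in the mean, -1.10 in VCaP, -0.36 in C4-2B, -0.074 in PC3 and 0.00099 in DU145, so the sign in DU145 is not settled by size. The median of the mean differences ran from -0.48 to -0.11 when a line was left out. The count of genes that differ between lines ran from 16 to 29, lowest without PC3, and the cause was not tested. Of 100 means of 25 named genes with a line left out, 95 kept their sign and 5 turned, and 0 turned under cyclic loess. Leaving out a line moved CBS from -0.073 to 0.067, PYCR1 from -0.25 to 0.11, ATF3 from -0.30 to 0.33 and VLDLR from -0.094 to 0.29. The sign turned without VCaP in all 4, and ATF3 also turned without C4-2B (0.042). The number of arrays limits the precision, and no detection call was used, so signals near 2.51 may be background.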
